A study of Mus musculus with 18 samples.

Results

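The comparison described here sets Dazl-GFP cells after 16 days of differentiation in culture against the same kind of cells after 12 days. It rests on 4 of the 18 arrays of the series, chosen by their titles, with 2 arrays at day 12 and 2 arrays at day 16. The whole series comprises 9 groups of 2 arrays each, and the other groups served only to estimate the spread between replicate arrays and to show the level of a gene elsewhere. All 4 samples were male cells of a mixed C57BL/6 and 129SV background, derived from embryonic stem (ES) cells that carry a green fluorescent protein (GFP) reporter for Dazl. The ES cells had been kept with LIF on feeder fibroblasts from mouse embryos. They were separated from the feeders on plastic, moved to gelatin-coated plates and given differentiation medium without a further agent named in the labels. At day 12 or day 16 they were released with trypsin and collagenase IV, and the GFP+ cells were sorted. Total RNA was then labelled in 1 colour for Agilent mouse whole-genome arrays. The labels call both populations in vitro primordial germ cells.

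Several features limit these cells as a model. The sort used Dazl itself, so the level of Dazl is no independent readout. The labels name no clone or reporter construct and do not say whether replicates came from separate cultures. The p-values thus set a change only against the spread between replicate samples, pooled over the 9 groups, which may be technical. Each sample was a pool of sorted cells: where a transcript differed, fewer cells of a type and less RNA per cell cannot be told apart.

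Primordial germ cells are the embryonic founders of sperm and eggs. Dazl encodes an RNA-binding protein that germ cells switch on as they reach the gonad, together with Ddx4, a germ cell RNA helicase. Cells leaving pluripotency in such cultures can also take up other fates, among them neural ectoderm, lens, endoderm and trophoblast. The lens fibre is filled with crystallins, the soluble proteins that give it its refractive power. A rare state of cultured ES cells transcribes genes of the 2-cell embryo, such as the Zscan4 and Tcstv families.

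A level here is the log2 signal of a probe minus the log2 of its array's 75th percentile. A level of 0 is thus the 75th percentile, and levels of different genes are not compared, since each probe has its own response. The 75th percentile of the signal was 160 and 158 on the day 12 arrays and 156 and 164 on the day 16 arrays. Between 56.7% and 61.0% of spots were well above background. Levels of replicate arrays correlated across genes at r = 0.987 for day 12 and r = 0.992 for day 16, against 0.984 and 0.983 for the day 12 and day 16 arrays that shared a slide. The day 12 and day 16 arrays with the same replicate number shared a slide, together with arrays of other groups, so every change could also be read within a slide.

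Levels of the reporter's gene and of other germ cell and pluripotency genes come first. As both days were sorted on the Dazl reporter, the level of Dazl cannot check the labels. Dazl stood at 4.93 and 4.81 at day 12 and at 4.85 and 4.78 at day 16, so the days overlapped. In the Dazl-GFP-negative ES cells of the series its mean level was -3.35. Ddx4 was 2.41 and 2.35 at day 12 and 1.71 and 1.64 at day 16, a difference of -0.71 ± 0.23 (SE, 2 arrays a day) that did not pass the test (limma, adjusted p = 0.318). Both day 12 arrays lay above both day 16 arrays. Pou5f1, the core pluripotency factor, was 4.68 and 4.34 at day 12 and 4.57 and 4.55 at day 16. Nanog, its partner, was 3.59 and 3.71 against 3.53 and 3.64. Neither separated the days. Dppa3, which encodes Stella, was 4.20 and 4.15 against 3.55 and 3.58 (limma, adjusted p = 0.845). Kit, the receptor for stem cell factor, was 2.81 and 2.85 against 2.24 and 2.20 (limma, adjusted p = 0.425). For Dppa3 and Kit the day 12 arrays were higher without overlap. Neither difference passed the test, whose spread is pooled over all groups.

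Of 18870 genes tested, 189 differed between the days (limma over all 18 arrays, Benjamini-Hochberg adjusted p under 0.05), which is 1.0% of the genes. There were 115 genes higher at day 16 (0.609%) and 74 genes lower (0.392%). At an unadjusted p under 0.05 there were 1462. Among the 108 called genes that were well above background on all 4 arrays, the change ranged from 0.73 to 7.16 in absolute log2, with a median of 1.98. All 189 called genes separated the arrays of the days and had the same sign on both slides. This follows in large part from the size of change that a call needed, so it adds no support. The matching shares over all genes were not counted. The median over all genes was -0.05. Without a test, 474 genes were higher by a log2 of at least 1 on both slides (2.51%) and 287 were lower by as much (1.52%). Of the genes called higher, 50 were not well above background on either day 12 array, and of those called lower, 20 were not so on either day 16 array.

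**Figure D1:**
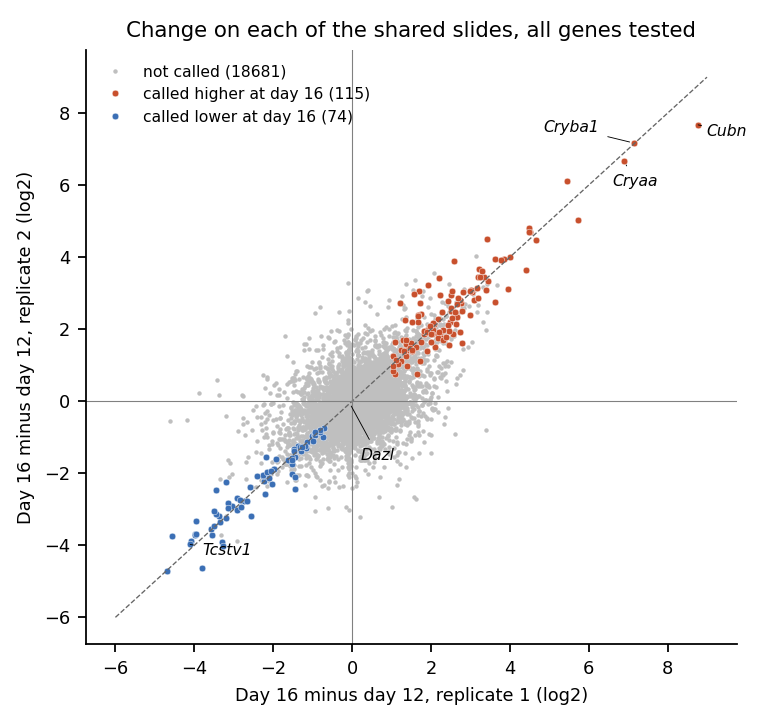
Change from day 12 to day 16 on the slide of replicate 1 (horizontal axis, log2) against that on the slide of replicate 2 (vertical axis, log2) for the genes tested, with equal change on the dashed line. The 115 genes called higher and the 74 called lower all lie in the corners where both slides moved the same way, with Cubn, Cryba1 and Cryaa at the upper end and Dazl near 0.

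The size of these counts rested on the number of arrays and on the spread taken from the other groups. Leaving out either day 12 array left 72 or 82 genes called, and leaving out either day 16 array left 59 or 62. There were 53 genes, 30 higher and 23 lower, that were called whichever of the 4 arrays was left out, and all 53 were also called with slide as a block. The pooled SD of the 4 arrays had a median of 0.077 over genes, against 0.358 over all 9 groups. Leaving out either E13.5 array, after which that group adds nothing to the spread, gave 374 called genes.

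Lens genes rose at day 16. Of 22 measured genes of the lens list, 8 were called higher and 0 lower, and the median change over the list was 2.33 (2.25 with the dim genes at their lower bound), beside -0.05 over all genes. A log2 rise of at least 1 on both slides was seen for 14 of the 22. The shares over all genes were 0.609% called higher and 2.51% with such a rise. The structural crystallins led: the alpha crystallin Cryaa, the beta crystallins Cryba1, Crybb1, Crybb3 and Cryba4, and the gamma crystallins Crygc and Cryge, together with Mip, the water channel of lens fibres.

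Cryaa, a small heat shock protein that keeps other lens proteins in solution, had levels of -1.01 and -0.82 at day 12 and 5.89 and 5.85 at day 16. The day 16 arrays stood far above the day 12 arrays and differed little from each other. The change of 6.78 ± 0.42 (SE), or 110.3-fold, was called with an adjusted p of 2.78e-05 (limma), and it was 6.90 on one slide and 6.67 on the other. A further probe of Cryaa changed by 6.35. Cryba1 had levels of -4.25 and -4.30 at day 12 and 2.89 and 2.87 at day 16, all of them well above background. It rose 143-fold (7.16 ± 0.51, SE; limma, adjusted p = 6.91e-05).

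Crybb1 was not well above background at day 12, at -4.48 and -5.21, and reached 0.96 and 0.91 at day 16. It was at least 49.6-fold higher (limma, adjusted p = 0.000225). Mip was likewise dim at -5.70 and -5.92, and reached -1.21 and -1.12. Its rise was at least 13.1-fold (limma, adjusted p = 0.000454). Crybb3 was measured on both days, at -2.94 and -2.74 and then at 1.73 and 1.75, a 23.9-fold rise (4.58 ± 0.54, SE; limma, adjusted p = 0.00156). Cryba4 was dim at day 12, at -6.62 and -6.71, and stood at -2.76 and -2.75 at day 16, at least 4.34-fold higher (limma, adjusted p = 0.000768). The days did not overlap for any of these genes. The lower bounds hold on the scale used here: with normexp background correction the rises were 3.79-fold for Crybb1, 2.42-fold for Mip and 2.17-fold for Cryba4, and those of Cryaa, Cryba1 and Crybb3 were 42.2-fold, 10.7-fold and 4.43-fold, all of them called.

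The gamma crystallins mark the fibre cells of the lens. Crygc was -2.97 and -2.95 at day 12 and 0.20 and 0.19 at day 16 (3.16 ± 0.49, SE; limma, adjusted p = 0.00922). Cryge was -2.81 and -2.90 at day 12 and 0.97 and 1.03 at day 16 (3.85 ± 0.71, SE; limma, adjusted p = 0.0256). Both were called with all arrays and with slide as a block, and neither was called once any of the 4 arrays was left out, with adjusted p up to 0.0989 and 0.189. Gamma crystallin genes are close copies of each other, so their probes may not separate them. The other 6 called lens genes were called whichever array was left out.

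**Figure D2:**
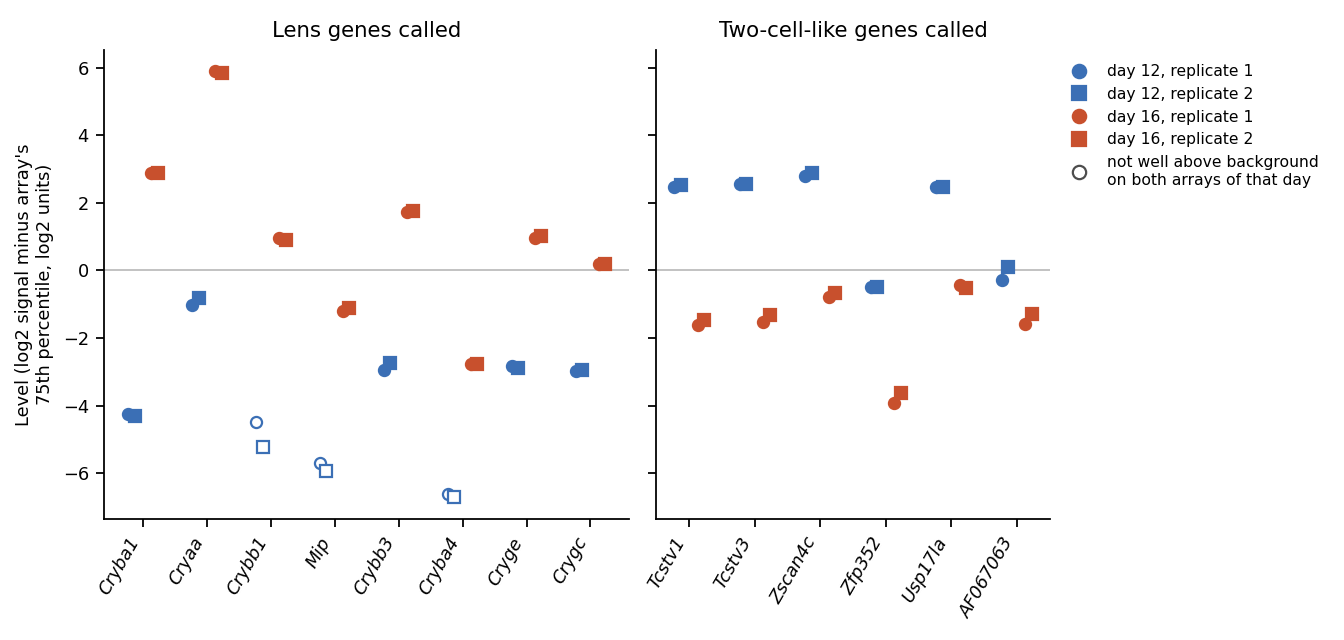
Level on each of the 4 arrays (log2 signal minus the array's 75th percentile) of the 8 lens genes called higher at day 16 and the 6 genes of the 2-cell-like list called lower, with circles for replicate 1, squares for replicate 2 and open symbols where fewer than both arrays of a day were well above background. Every lens gene lies higher on both day 16 arrays, from Cryaa at 5.89 and 5.85 down to Cryba4 at -2.76 and -2.75, and every 2-cell-like gene lies lower.

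Of the members that were not called, Cryba2 (-5.34 and -5.36 at day 12, dim, against -2.01 and -2.20; limma, adjusted p = 0.0623), Cryab (0.08 and 0.20 against 1.50 and 1.48; 0.0801) and Cryga (-2.09 and -1.22 against 0.51 and 0.58; 0.0903) came closest. All 3 were higher on both day 16 arrays. The probes of Cryab disagreed in size, at 1.35 for the one given and 0.20 for the other. The lens transcription factors gave no call: Prox1 was -4.52 and -4.32 at day 12 and -2.15 and -1.95 at day 16, Foxe3 was -4.72 and -2.77 against -3.33 and -2.96, and Hsf4 was not well above background on any of the 4 arrays. Maf, a transcription factor that acts on crystallin genes, was 0.04 and 1.35 against 0.57 and 1.22 by its brightest probe, which overlapped, while its other probe changed by 3.28, so the probes of Maf disagreed. Pitx3, a homeobox gene needed for the lens, and Grifin, a galectin-related lens protein, were not on the list and were noticed after their values were seen. Pitx3 rose from -2.76 and -2.54 to -0.57 and -0.78 (limma, adjusted p = 0.00382), and Grifin from -3.27 and -2.93 to -0.61 and -0.58 (limma, adjusted p = 0.00716). Pitx3 was called in 2 of the 4 fits that left out an array, losing its call without day 12 replicate 1 or day 16 replicate 1, and Grifin only in the fit without day 12 replicate 2.

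Because these genes moved together, the DNA before their start sites is shown for 7 of the 8 called lens genes, taken from RefSeq on GRCm38.p6 as the 250 bases upstream of the annotated start, in the direction of transcription. Capitals mark TGCTGA, the core of the site bound by large Maf proteins, or its reverse complement TCAGCA. The last window is that of Cryge, which is shown as the window without a match.
Cryaa, chr17:31677681-31677930, plus strand: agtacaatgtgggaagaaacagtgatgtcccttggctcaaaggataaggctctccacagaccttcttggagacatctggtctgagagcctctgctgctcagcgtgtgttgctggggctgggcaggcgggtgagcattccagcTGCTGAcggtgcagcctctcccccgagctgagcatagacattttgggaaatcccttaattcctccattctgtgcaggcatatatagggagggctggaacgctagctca
Cryba1, chr11:77725294-77725543, minus strand: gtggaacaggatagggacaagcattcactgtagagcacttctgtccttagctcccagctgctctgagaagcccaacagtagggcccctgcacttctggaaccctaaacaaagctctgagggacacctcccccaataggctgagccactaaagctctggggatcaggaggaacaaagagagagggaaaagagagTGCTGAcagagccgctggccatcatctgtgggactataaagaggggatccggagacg
Cryba4, chr5:112252519-112252768, minus strand: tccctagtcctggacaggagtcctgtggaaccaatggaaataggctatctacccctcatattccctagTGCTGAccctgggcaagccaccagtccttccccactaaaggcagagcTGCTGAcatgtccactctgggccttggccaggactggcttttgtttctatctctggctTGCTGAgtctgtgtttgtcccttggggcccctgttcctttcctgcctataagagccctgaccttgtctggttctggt
Crybb1, chr5:112255570-112255819, plus strand: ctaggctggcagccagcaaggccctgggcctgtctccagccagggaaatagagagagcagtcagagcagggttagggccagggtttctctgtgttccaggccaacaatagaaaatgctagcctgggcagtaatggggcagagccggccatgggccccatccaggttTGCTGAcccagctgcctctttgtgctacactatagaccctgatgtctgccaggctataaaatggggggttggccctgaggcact
Crybb3, chr5:113081585-113081834, minus strand: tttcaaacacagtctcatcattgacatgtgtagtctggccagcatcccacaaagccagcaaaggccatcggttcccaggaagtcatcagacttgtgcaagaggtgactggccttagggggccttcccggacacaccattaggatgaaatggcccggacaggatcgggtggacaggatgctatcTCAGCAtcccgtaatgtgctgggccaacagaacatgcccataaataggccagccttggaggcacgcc
Mip, chr10:128225560-128225809, plus strand: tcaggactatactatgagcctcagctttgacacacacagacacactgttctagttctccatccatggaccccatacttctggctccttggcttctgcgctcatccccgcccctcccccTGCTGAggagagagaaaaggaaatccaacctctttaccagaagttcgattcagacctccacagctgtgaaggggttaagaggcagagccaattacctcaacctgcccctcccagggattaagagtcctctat
Cryge, chr1:65051164-65051413, minus strand: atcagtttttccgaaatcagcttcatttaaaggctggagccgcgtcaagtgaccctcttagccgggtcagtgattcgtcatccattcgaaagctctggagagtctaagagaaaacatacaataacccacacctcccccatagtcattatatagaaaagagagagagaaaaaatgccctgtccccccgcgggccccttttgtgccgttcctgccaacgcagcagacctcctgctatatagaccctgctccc

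TGCTGA was searched on both strands. It occurred in 7 of the 8 windows of called lens genes (87.5%), Cryge being the exception, and in 12 of the 19 windows found for the measured lens genes (63.2%). Counted per gene it occurred in 18% of the 27025 genes with a window, and counted per window in 16.1% of all 32851 windows of the same length. The first base of the match lay 108 bases before the start in Cryaa, 57 in Cryba1, 84 in Crybb1 and 132 in Mip. Cryba4 had 3 matches, at 182, 135 and 77 bases, and Crybb3 had its match on the other strand. TATAAA, the core of the TATA box, was searched the same way and occurred in 2 of the 8 (25%), Cryba1 and Crybb1, beside 14.3% of all genes and 12.4% of all windows. Among all genes called higher that had a window, TGCTGA occurred in 26 of 86 (30.2%), and among those called lower in 11 of 44 (25%). These matches describe the letters of the windows and say nothing of binding.

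Genes of tissues next to the lens in the developing eye were called in small numbers. The share called higher over all genes was 0.609%. Of 14 measured genes of the list for pigment cells and the retinal pigment epithelium, 3 were called higher: Tyrp1, a melanosome enzyme, Tspan10, a tetraspanin, and Pmel, the scaffold of the melanosome. Tyrp1 stood at -4.65 and -4.33 at day 12, where 1 of the 2 arrays was well above background, and at -2.50 and -2.43 at day 16 (2.03 ± 0.24, SE; limma, adjusted p = 0.00167), and it was called whichever array was left out. Pmel was 0.89 and 0.92 at day 12 and 1.94 and 1.90 at day 16 (limma, adjusted p = 0.0383), and this call was lost with any of the 4 arrays left out and with slide as a block (adjusted p = 0.1). Tspan10 was lost in the same settings.

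Of 7 measured retina genes, 1 was called. Atoh7, the factor that starts retinal ganglion cells, was dim at -5.10 and -5.38 at day 12 and reached -1.88 and -1.69 at day 16, at least 8.49-fold higher (limma, adjusted p = 0.00167). The photoreceptor genes Sag and Rcvrn were not well above background on any of the 4 arrays.

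Of 16 neural ectoderm genes, 3 were called higher, beside 0.609% of all genes, and the list's median change was 0.63. Pax6, a master gene of eye and neural tube, was -1.12 and -0.995 at day 12 and 0.25 and 0.27 at day 16 (1.32 ± 0.21, SE; limma, adjusted p = 0.00922). Hes5, a Notch target of neural progenitors, was -2.37 and -1.98 and then 0.82 and 0.90 (3.03 ± 0.52, SE; limma, adjusted p = 0.0173). Fabp7, a lipid carrier of radial glia, was dim at -5.11 and -6.31 and reached -2.91 and -2.89, at least 3.94-fold higher (limma, adjusted p = 0.00574). The arrays of the days did not overlap for any of them. Pax6 and Hes5 lost their call with any 1 of the 4 arrays left out (adjusted p up to 0.12 and 0.165), and Fabp7 kept it only without day 12 replicate 1 (up to 0.0671). Sox1, the earliest neural plate marker, was -4.29 and -2.93 against -4.51 and -3.22, which overlapped. Of 15 neuron genes, Stmn2 and Ina were called higher, and neither call held with slide as a block (limma, adjusted p = 0.134 and 0.075). With signals below background floored, the log2 change of Ina was 0.07 and was not called.

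The summed signal of a list, as a multiple of the array's 75th percentile, adds its members on the linear scale, so the brightest probes weigh most. For the lens list it was 3.94 to 6.43 at day 12 and 82.9 to 83.2 at day 16, and 2.34 to 9.22 over the 14 arrays of the other groups. Most of the day 16 lens sum came from Cryaa, at log2 levels of 5.89 and 5.85, so it adds little about the other lens genes. Between 12 and 14 of the 22 lens genes were well above background at day 12 and 20 to 21 at day 16. The neural ectoderm sum went from between 4.42 and 5.22 to between 8.34 and 8.79, and that of the pigment list from between 11.2 and 12.0 to between 16.9 and 17.1. The fibroblast sum was 46.2 to 46.8 at day 12 and 60.7 to 62.2 at day 16. The sum of the gonadal germ cell list, 89.4 to 94.2 at day 12 and 85.5 to 88.5 at day 16, was lower at day 16. The part of any of these cell types in the changes of other genes was not tested.

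The 2-cell-like list moved the other way. Of its 23 members, 9 were measured, 6 were called lower and 0 higher, and 8 fell by a log2 of at least 1 on both slides. The median change of the 9 was -2.96. Of all genes, 0.392% were called lower and 1.52% fell by a log2 of at least 1 on both slides. Tdpoz1 was not well above background on any of the 4 arrays, Sp110 (-0.39 and -0.47 against -1.79 and -1.95) and Usp17lb (-1.62 and -1.59 against -4.15 and -3.98) were lower at day 16 without passing the test, and the other 6 were called.

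Tcstv1 and Tcstv3 encode short proteins first found in 2-cell embryos and variant ES cells. Tcstv1 had levels of 2.48 and 2.52 at day 12 and -1.63 and -1.45 at day 16. It fell by 4.04 on the log2 scale, or 16.4-fold (SE 0.44; limma, adjusted p = 0.000949), and its further probes changed by up to -4.63. Tcstv3 had levels of 2.57 and 2.55 at day 12 and -1.51 and -1.32 at day 16, a 15.7-fold fall (SE 0.29; limma, adjusted p = 6.91e-05). By these probes both remained well above background at day 16, while a dimmer probe of each gene was not so on either day 16 array. AF067063, their neighbour on chromosome 13, was -0.28 and 0.09 at day 12 and -1.58 and -1.30 at day 16 (limma, adjusted p = 0.0167), and its probes disagreed in size, from -1.35 to -2.82. Its call was lost with any 1 of the 4 arrays left out.

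Zscan4c, a zinc finger gene that marks the 2-cell-like state and acts on telomeres, was 2.79 and 2.89 at day 12 and -0.79 and -0.66 at day 16, an 11.8-fold fall (SE 0.47; limma, adjusted p = 0.00304). Zfp352, a zinc finger gene of the early embryo, was -0.48 and -0.50 and then -3.92 and -3.64 (limma, adjusted p = 0.00154). Usp17la, a deubiquitinating enzyme, was 2.47 and 2.48 and then -0.44 and -0.52 (limma, adjusted p = 0.00167). The day 12 arrays were above the day 16 arrays in every case, and these 3 calls, like those of Tcstv1 and Tcstv3, held whichever array was left out. With normexp background correction the falls of Tcstv1, Tcstv3 and Zscan4c were 5.24-fold, 5.69-fold and 5.96-fold and still called, and that of Zfp352 was not called. The Zscan4, Tcstv and Usp17l genes have near-identical copies in the mouse genome, so a probe may read more than the gene it is named for.

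Some of the largest falls belonged to genes outside that list. Gm428 had levels of 2.88 and 2.89 at day 12 and -1.10 and -0.82 at day 16, a 14.4-fold fall (limma, adjusted p = 0.000635). Gm11487, which lies next to it on chromosome 4, was 0.46 and 0.47 and then -3.05 and -2.99 (limma, adjusted p = 0.0217), and it lost its call with any 1 of the 4 arrays left out. Pramel37 was 1.23 and 1.13 at day 12 and -2.75 and -2.56 at day 16, a 14.2-fold fall (SE 0.29; limma, adjusted p = 7.94e-05). Pramel39 was 0.50 and 0.20 and then -2.71 and -3.04, a 9.31-fold fall (SE 0.37; limma, adjusted p = 0.00147). These genes belong to the leucine-rich Pramel family, whose members are transcribed in germ cells and early embryos. In all of them both day 16 arrays lay far below both day 12 arrays.

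Pramel37 and Pramel39 also show how alike such copies are. Their windows before the start, from RefSeq on GRCm38.p6, are printed with TATAAA in capitals.
Pramel37, chr5:94070546-94070795, minus strand: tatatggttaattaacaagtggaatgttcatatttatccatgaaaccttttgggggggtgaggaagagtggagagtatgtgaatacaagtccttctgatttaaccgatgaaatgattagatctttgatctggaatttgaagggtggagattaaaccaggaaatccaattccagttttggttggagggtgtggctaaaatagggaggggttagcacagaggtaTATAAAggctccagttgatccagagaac
Pramel39, chr5:94306797-94307046, minus strand: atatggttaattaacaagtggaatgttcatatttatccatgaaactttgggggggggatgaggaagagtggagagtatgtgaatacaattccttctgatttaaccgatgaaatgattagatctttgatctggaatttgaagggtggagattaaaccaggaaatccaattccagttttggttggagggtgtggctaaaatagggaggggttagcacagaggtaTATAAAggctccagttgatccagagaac

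The windows carry the same base at 212 of 250 positions without gaps (84.8%). Their first bases are the same run of letters set off from each other, so this count understates how alike they are. No count with gaps was made. Each has its TATAAA 28 bases before the start. Families grouped by symbol after the values were seen showed that the fall was not shared by all Pramel genes. Of 9 measured members, 3 were called lower, Pramel34, Pramel37 and Pramel39, which are neighbours on chromosome 5. The share called lower over all genes was 0.392%. Pramel34 was -4.25 and -4.49 at day 12 and dim at day 16, at least 1.47-fold lower (limma, adjusted p = 0.000183). Pramel13 was 4.43 and 4.40 against 3.96 and 3.91, Pramel12 was 0.47 and 0.47 against 0.63 and 0.60, and Pramel7 was -2.94 and -2.63 against -1.05 and -0.90, none of which was called.

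**Figure D3:**
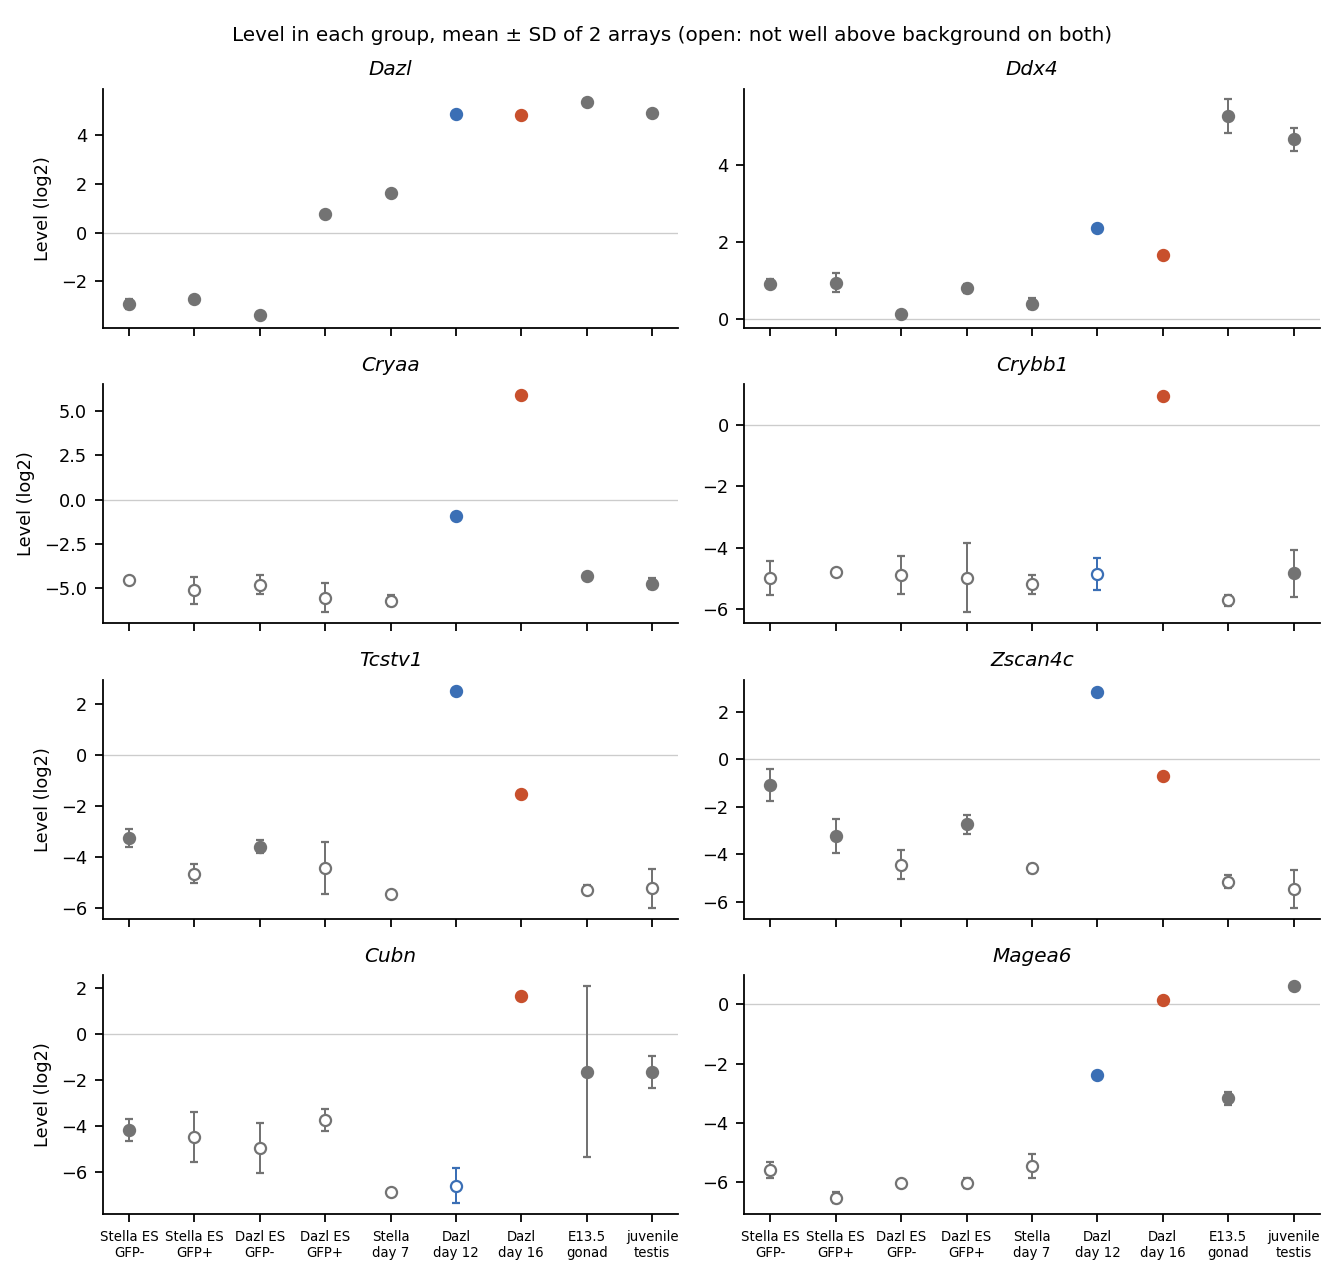
Mean level ± SD of 2 arrays in each of the 9 groups for 8 genes, on the log2 scale, with filled symbols where both arrays were well above background. Cryaa and Crybb1 stand highest at day 16, Tcstv1 and Zscan4c at day 12, and Dazl at nearly the same level on both days.

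Set among all 9 groups, day 12 and day 16 each held the highest mean of most of these genes. Of the 115 genes called higher, 72 had their highest mean level at day 16, and 30 were not well above background on both arrays of any group other than day 12 and day 16. Of the 74 called lower, 46 had their highest mean at day 12, and 20 were not well above background on both arrays of any other group. These counts follow in part from how the genes were called and from the filter, and they carry no test. The 30 and the 20 genes passed the filter only through day 12 or day 16. The matching shares over all genes tested were not counted. Tcstv1 had a mean of 2.50 at day 12 and -1.54 at day 16, beside -3.24 in Stella-GFP-negative ES cells and -5.45 in Stella-GFP cells at day 7. Zscan4c had 2.84 and -0.72, beside -1.09 in Stella-GFP-negative ES cells. Cryaa had -0.92 and 5.87, and was at most -4.30 elsewhere, in E13.5 germ cells. The summed signal of the 2-cell-like list was 26.6 to 27.5 at day 12, 2.74 to 2.93 at day 16 and 0.419 to 1.45 over the other 14 arrays.

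Among the remaining large rises, Cubn stood out in size. Cubn encodes cubilin, an endocytic receptor of visceral endoderm and kidney. It was not well above background at day 12, at -7.13 and -6.04, and stood at 1.64 and 1.63 at day 16. It was at least 91.3-fold higher (8.22 ± 1.26 as measured, SE; limma, adjusted p = 0.00844). Leaving out any array but Dazl-GFP day 12 replicate 2 ended this call, with adjusted p up to 0.0994, and its level on the E13.5 arrays, which enter the pooled spread, had an SD of 3.72. Dab2, an adaptor that works with cubilin, was -1.70 and -1.75 at day 12 and 0.48 and 0.54 at day 16 (2.23 ± 0.22, SE; limma, adjusted p = 0.000486) and was called whichever array was left out. These were the 2 members called of 19 in the endoderm list, whose median change was 1.04. A log2 rise of at least 1 on both slides was seen for 10 of the 19. The shares over all genes were 0.609% called higher and 2.51% with such a rise. Foxa2 (-2.82 and -2.72 against -0.87 and -0.87), Sox17 (-3.68 and -2.71 against -1.76 and -1.40) and Gata6 (-0.81 and -0.81 against 0.23 and 0.24), transcription factors of the endoderm, were higher on both day 16 arrays and were not called. Afp and Apob, secreted products of endoderm and liver, were not called either, and Apob was dim on all 4 arrays.

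The other genes with the largest rises come from varied tissues. Cyp4f14, a cytochrome P450 of fatty acid metabolism, was dim at -6.61 and -5.95 at day 12 and reached -0.89 and -0.92, at least 15.7-fold higher (limma, adjusted p = 0.00154). Nostrin, which controls traffic of endothelial nitric oxide synthase, was dim at -6.53 and -6.69 and reached -2.02 and -2.00, at least 7.27-fold higher (limma, adjusted p = 0.000183). Aqp1, a water channel, was dim at -6.74 and -6.89 and reached -2.25 and -2.18, at least 6.31-fold higher (limma, adjusted p = 0.00197). The days did not overlap for any of these. Vit, which encodes vitrin, an extracellular matrix protein, was -4.58 and -3.76 at day 12, with 1 of the 2 arrays well above background, and -0.18 and -0.12 at day 16 (limma, adjusted p = 0.000454). A further Vit probe was dim on all 4 arrays and changed by -0.07. Gria1, a glutamate receptor subunit, was dim at -6.04 and -7.09 and reached -2.62 and -2.58, at least 4.84-fold higher (limma, adjusted p = 0.00181). These 5 calls held whichever array was left out. With normexp background correction the rises were smaller, at 2.56-fold for Cyp4f14, 2.22-fold for Nostrin, 2.27-fold for Aqp1 and 2.20-fold for Gria1, and 6.95-fold for Cubn.

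Fgf5, the growth factor that marks the primed epiblast, was dim at day 12, at -6.87 and -6.94, and stood at -2.85 and -2.93 at day 16, at least 3.95-fold higher (limma, adjusted p = 0.0168). With low signals raised to the floor used for this bound, Fgf5 was not called (limma, adjusted p = 0.33). Its call was lost with any 1 of the 4 arrays left out (adjusted p up to 0.152). It was the single call among 15 primed epiblast genes, whose median change was 1.06. A log2 rise of at least 1 on both slides was seen for 8 of the 15. The shares over all genes were 0.609% called higher and 2.51% with such a rise. In the Dazl-GFP-negative ES cells the mean level of Fgf5 was 4.36. Otx2, a factor of epiblast and forebrain, was -1.61 and -1.54 against -0.09 and -0.11, and Nodal, a signal of the epiblast, was 1.63 and 1.54 against 2.65 and 2.64. Both were higher on both day 16 arrays without a call, with SEs of 1.62 and 1.01 from the pooled spread.

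A few placental genes were called higher, as were 0.609% of all genes. Trophoblast, the outer layer of the conceptus, secretes hormones of the prolactin family (Prl) and cathepsins of its own. Of 13 measured genes of the trophoblast list, 1 was called, Tpbpa, a marker of the spongiotrophoblast. It was dim at -5.53 and -6.69 at day 12 and reached -3.96 and -3.70 at day 16, at least 2.06-fold higher (limma, adjusted p = 0.00925), and the call remained in 1 of the 4 fits that left out an array (adjusted p up to 0.112). With low signals raised to the floor used for that bound, Tpbpa was not called (limma, adjusted p = 0.0618). Cdx2, a defining factor of the trophoblast, was not well above background on any of the 4 arrays, and Eomes was -3.75 and -3.83 against -2.87 and -3.12. Krt8 and Krt18, keratins of simple epithelia, overlapped or lay lower at day 16, at 3.79 and 3.72 against 3.78 and 3.73 and at 5.03 and 4.92 against 4.69 and 4.64. The summed trophoblast signal was 65.2 to 68.5 at day 12 and 56.5 to 57.9 at day 16.

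The Prl genes were grouped by symbol after their values were seen. Of 9 measured, 5 were called higher and 8 rose by a log2 of at least 1 on both slides, with a median of 2.40. The shares over all genes were 0.609% and 2.51%. The calls of Prl4a1 and Prl2c3 held whichever of the 4 arrays was left out, those of Prl2c5 and Prl7d1 in 1 of these 4 fits, and that of Prl2a1 in none of them nor with slide as a block. Prl2a1 was -3.22 and -3.50 at day 12 and 0.02 and -0.04 at day 16 (3.34 ± 0.56, SE; limma, adjusted p = 0.0139). Prl4a1 was dim at -7.06 and -7.15 and reached -3.43 and -3.21, at least 2.94-fold higher (limma, adjusted p = 7.94e-05). Prl2c3 was -4.32 and -3.88 and then -1.68 and -1.73 (limma, adjusted p = 0.00097), and Prl2c5 was -3.08 and -3.09 and then -0.32 and -0.36 (limma, adjusted p = 0.00463). Prl7d1 was -4.33 and -4.76, with 1 of the 2 arrays well above background, and then -1.80 and -1.71 (limma, adjusted p = 0.00616). Prl3d1, the placental lactogen of giant cells, was -3.48 and -1.86 against -2.49 and -1.85 and overlapped. Ctsj, a cathepsin of the placenta, was called too, from dim at -6.65 and -6.73 to -4.02 and -4.27, at least 1.65-fold higher (limma, adjusted p = 0.00177). The Prl2c genes are close copies, so their probes may not separate them.

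The Magea genes on the X chromosome, named for human melanoma antigens and transcribed in testis, were also grouped after their values were seen. Of 8 measured, 3 were called higher and 6 rose by a log2 of at least 1 on both slides, beside 0.609% and 2.51% of all genes. Magea6 was -2.36 and -2.42 at day 12 and 0.16 and 0.09 at day 16 (2.52 ± 0.22, SE; limma, adjusted p = 0.000183). Magea1 was -1.89 and -2.08 and then 0.93 and 0.95 (2.92 ± 0.34, SE; limma, adjusted p = 0.00149). Magea8 was -2.20 and -2.28 and then 0.46 and 0.42 (2.68 ± 0.44, SE; limma, adjusted p = 0.0128), a call that was lost with any 1 of the 4 arrays left out, while those of Magea1 and Magea6 held. Magea3 (-1.42 and -1.27 against 1.41 and 1.31; limma, adjusted p = 0.111) moved as far and was not called. These genes are near-identical in sequence, and their rows are not independent. In germ cells of the juvenile testis Magea6 had a mean of 0.61, and in E13.5 germ cells -3.17.

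**Figure D4:**
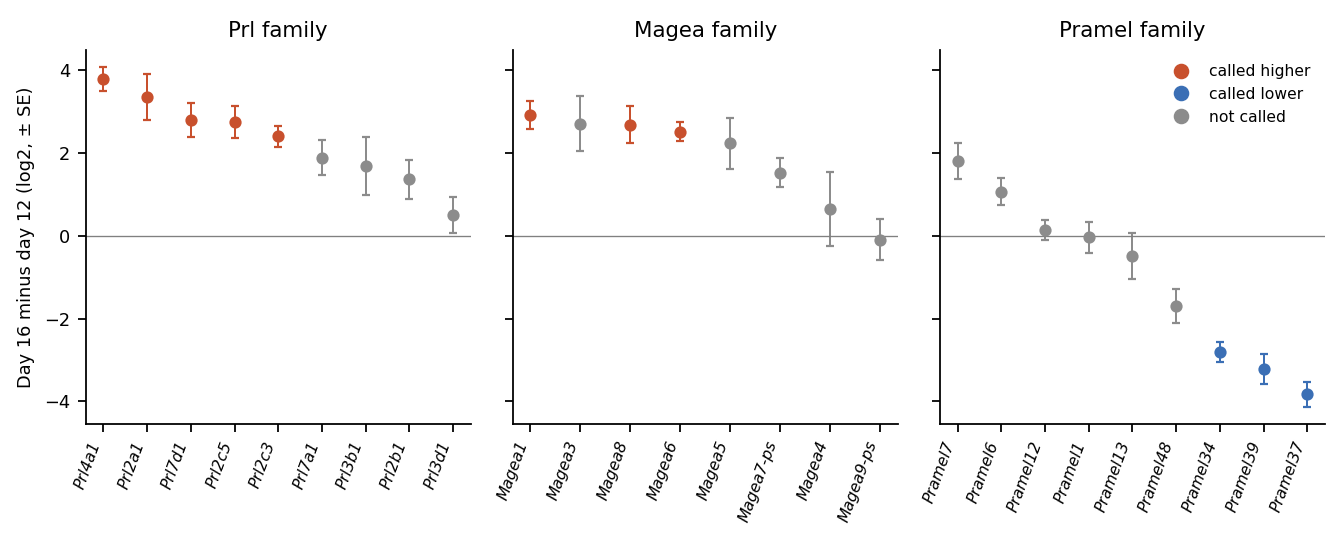
Change from day 12 to day 16 (log2, with its standard error from limma) of each measured member of the Prl, Magea and Pramel families, coloured by call. The called Prl and Magea genes lie above 0 and the called Pramel genes below it, while other Pramel members lie on both sides. Prl4a1 and Pramel34 were dim on their lower day, so their plotted changes are not exact.

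Some large falls came from genes of other tissues. Arg2, the mitochondrial arginase, was -1.76 and -1.80 at day 12 and dim at -5.04 and -5.82 at day 16, at least 8.89-fold lower (limma, adjusted p = 0.00151). Tie1, an endothelial receptor, was -3.30 and -3.14 and then dim at -6.59 and -7.05, at least 3.27-fold lower (limma, adjusted p = 0.00102). Clec10a, a lectin of macrophages and dendritic cells, was -1.62 and -1.67 and then -4.76 and -4.50, with 1 of the 2 day 16 arrays well above background (limma, adjusted p = 0.00844). The Clec10a call was lost with slide as a block (limma, adjusted p = 0.0509). It was also lost with any 1 of the 4 arrays left out, while those of Arg2 and Tie1 held. The day 16 arrays lay below the day 12 arrays in all 3, and with normexp background correction, under which the median over all genes was 0.25, all 3 turned to a rise that was not called (Arg2 0.20, Tie1 0.71 and Clec10a 0.24). Of the 14 endothelial genes, Tie1 was called lower while Esam, a junction protein, was called higher (-3.30 and -2.93 against -1.91 and -1.96; limma, adjusted p = 0.0168), a call that remained only in the fit without day 12 replicate 2 among the 4 that left out an array (adjusted p up to 0.198). Cdh5, the cadherin that defines endothelium, was dim at day 12, at -6.40 and -5.24, and -3.58 and -3.78 at day 16, and was not called.

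Single members of 3 further lists were called lower: Acta1 of skeletal muscle (13 measured), Comp of cartilage and bone (8 measured) and Cox6a2, the muscle form of a cytochrome oxidase subunit, of oxidative phosphorylation (21 measured). Cox6a2 was 0.09 and 0.11 at day 12 and -2.16 and -1.93 at day 16 (limma, adjusted p = 0.0131). Acta1 was -0.96 and -0.98 and then -2.22 and -2.26, and Comp was -1.78 and -1.83 and then -3.70 and -3.43. All 3 calls were lost with slide as a block and with any 1 of the 4 arrays left out. The galectins Lgals4 and Lgals6, noticed after their values were seen, fell from 1.76 and 1.83 to -0.97 and -0.93 and from 0.60 and 0.55 to -3.37 and -3.14 (limma, adjusted p = 0.000183 and 0.00207). They are gut galectins of very similar sequence, and both calls held whichever array was left out. The 2 tested probes of Lgals4 differed in size, at -2.74 and -1.13.

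No gene of the germ cell lists was called, beside 1.0% of all genes. That holds for 21 genes of gonadal germ cells, 18 of the piRNA pathway, 27 of meiosis, 15 of spermatogonia, 14 of early primordial germ cells and 12 of the late germline and cancer-testis list. With so small a share called, the lack of a call in lists of this size says little about their genes. The E13.5 arrays, which enter the pooled spread, differed in the summed meiosis signal, at 137 and 1013. At an unadjusted p under 0.05 (limma), 5 gonadal germ cell genes and 6 piRNA genes were lower and 0 were higher, beside 7.75% of all genes in either direction. The medians of these lists were -0.34 and -0.38. At the same p, 1 meiosis gene and 1 late germline gene were lower, 1 early primordial germ cell gene was higher and 1 lower, and 1 spermatogonia gene was higher and 2 were lower. Dmrt1, a sex determination factor of germ and Sertoli cells, was 1.47 and 1.47 at day 12 and 0.69 and 0.64 at day 16 (limma, adjusted p = 0.139). Tdrd5, a germ granule protein, was -0.19 and -0.24 against -1.34 and -1.21, and Tdrd9, a piRNA pathway helicase, was -1.48 and -1.35 against -2.52 and -2.51. In these 3 the day 12 arrays were higher without overlap. Mael and Tdrd12, further piRNA pathway genes, were 3.22 and 3.17 against 3.06 and 2.94 and 3.61 and 3.57 against 3.28 and 3.22. Nanos2, which directs male germ cells, was not well above background on any of the 4 arrays. With only the 4 arrays in the fit, 19.7% of all genes passed (7.84% higher and 11.8% lower). In that fit 2 gonadal germ cell genes passed as higher and 8 as lower, 2 piRNA genes as higher and 7 as lower, and 1 meiosis gene as higher and 8 as lower. The early primordial germ cell list had 3 and 3, the spermatogonia list 3 and 2, and the late germline list 2 and 4.

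In the naive pluripotency list 0 of 16 genes were called, beside 1.0% of all genes. Tfcp2l1, a factor of the naive state, was 3.25 and 3.13 at day 12 and 2.22 and 2.13 at day 16 (limma, adjusted p = 0.189), and Socs3, a feedback inhibitor of LIF signalling, was 4.34 and 4.31 against 3.67 and 3.68. Both were lower on both day 16 arrays. Among early primordial germ cell genes, Ifitm3 was 3.57 and 3.88 against 4.60 and 4.69 and Prdm1, the factor that sets germ cell fate, was -2.26 and -2.26 against -1.58 and -1.46. Of the DNA methylation genes, Dnmt3l, a cofactor of the methyltransferases, was 3.68 and 3.77 against 5.08 and 5.14 (limma, adjusted p = 0.205).

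Other lists without a call included several whose members lay mostly higher at day 16. Of all genes 1.0% were called, and 2.51% rose by a log2 of at least 1 on both slides. In the interferon response list 0 of 18 genes were called, the median change was 0.92, and 8 rose by a log2 of at least 1 on both slides, with 5 higher at an unadjusted p under 0.05 (limma). Isg15, a ubiquitin-like modifier, was -1.75 and -1.68 at day 12 and 1.11 and 1.03 at day 16, with an SE of 1.38 for the difference. Irf7, a transcription factor of the response, was -3.93 and -3.20 against -1.61 and -1.53 (limma, adjusted p = 0.0778). In the fibroblast list 0 of 23 were called, an unadjusted p under 0.05 (limma) was reached by 6 higher members and 1 lower member, and the matrix proteoglycans Dcn (dim at -6.47 and -6.01, then -3.05 and -3.54; limma, adjusted p = 0.0616) and Lum (dim at -5.63 and -5.18, then -2.44 and -2.49) were higher at day 16. Col4a1, a basement membrane collagen, was -0.43 and -0.47 against 1.12 and 1.05 (limma, adjusted p = 0.0567). In the Nodal, BMP and TGF-beta list Lefty2, an inhibitor of Nodal, was -2.10 and -1.90 against 1.31 and 1.35 without a call (limma, adjusted p = 0.714). In the retinoic acid list Aldh1a1, an enzyme that makes retinoic acid, was -2.75 and -2.28 against 0.92 and 0.96 (limma, adjusted p = 0.108). Lefty2 and Aldh1a1 were higher on both day 16 arrays, and their p-values rest on the spread pooled over all groups.

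The lists for imprinted genes, mesoderm, Hox clusters, collagen, smooth muscle, heart muscle, erythroid cells, macrophages, epithelial cells and keratinocytes, Sertoli cells and gonadal soma, cell cycle, apoptosis and p53, immediate-early and stress genes, glycolysis, cholesterol synthesis, Wnt signalling and chromatin of H3K9 and polycomb also held no called gene. Of all genes 1.0% were called, and 29 of the 43 lists held none of them. Their 463 distinct genes included 60 at an unadjusted p under 0.05 (limma), or 13%, beside 7.75% of all genes, and their medians ran from -0.38 to 0.92. Ccnd2, a cyclin of the G1 phase, showed the largest change of the cell cycle list, from -0.10 and -0.05 to 1.88 and 1.80 (limma, adjusted p = 0.208). Proliferation genes such as Pcna (5.75 and 5.79 against 5.50 and 5.49) and Rrm2 (4.08 and 4.09 against 3.71 and 3.74) were not called.

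**Figure D5:**
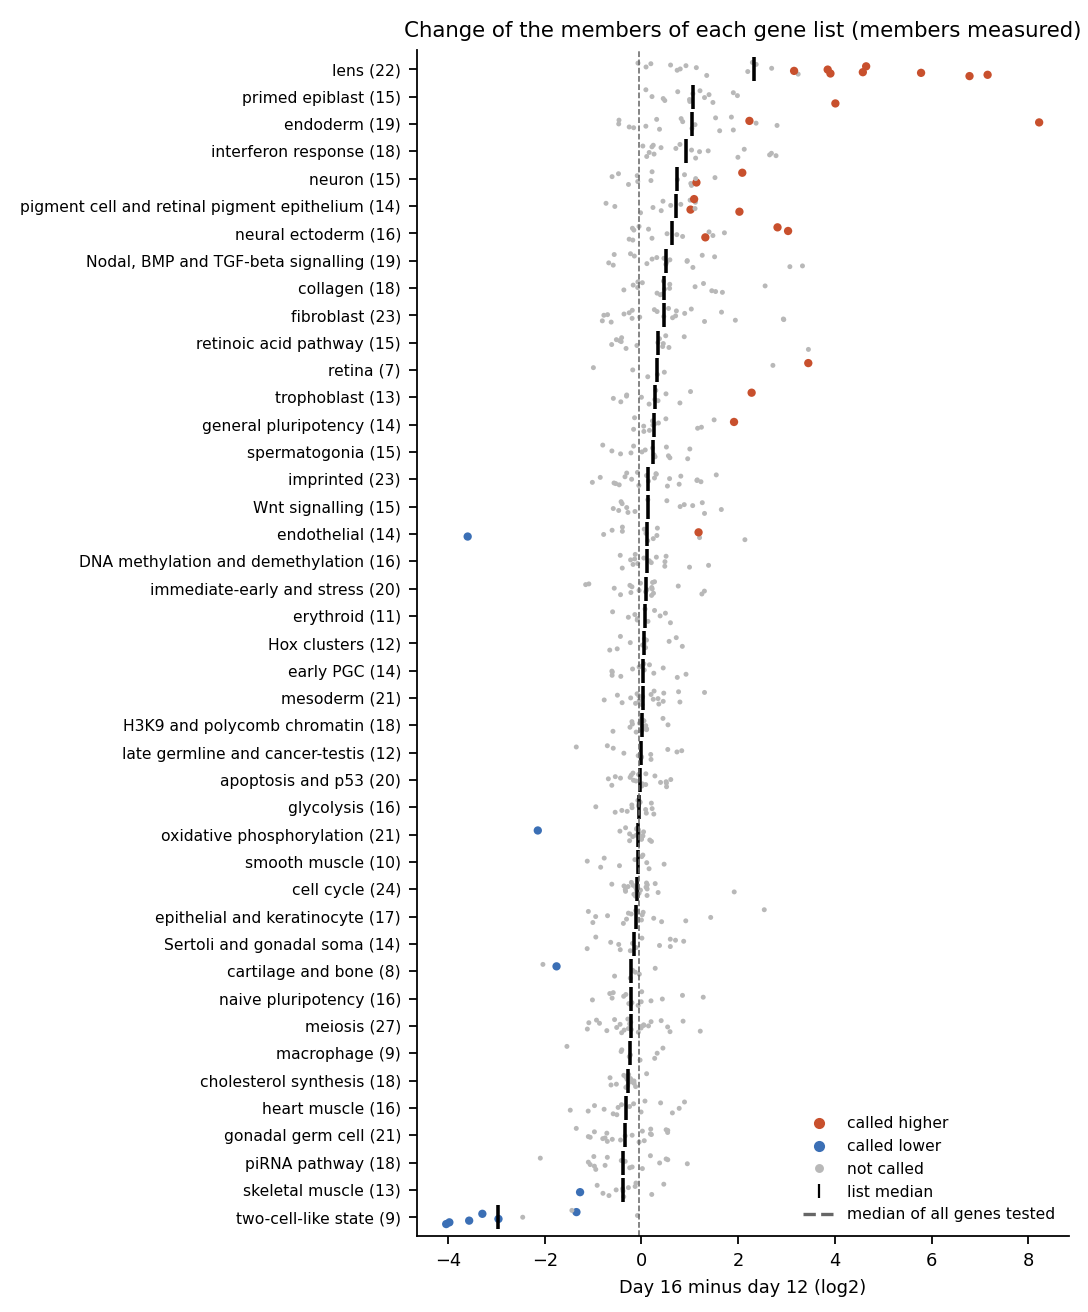
Change from day 12 to day 16 (log2) of every measured member of the 43 gene lists, ordered by list median (black bars), with called genes coloured and the median of all genes tested as a dashed line. The lens list stands at the top with a median of 2.33 and 8 of 22 called higher, and the 2-cell-like list at the bottom with -2.96 and 6 of 9 called lower.

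Called genes lay beside each other in places. Of the 162 called genes with a place in the RefSeq table, 9 of 105 called higher and 12 of 57 called lower formed 9 runs of direct neighbours that were called in the same direction. The runs of 3 were Prl7d1, Prl2a1 and Prl4a1 on chromosome 13, AF067063, Tcstv1 and Tcstv3 on chromosome 13, and Pramel34, Pramel37 and Pramel39 on chromosome 5. Pairs included Cryba4 with Crybb1 on chromosome 5, Prl2c3 with Prl2c5 and Tpbpa with Ctsj on chromosome 13, and Gm11487 with Gm428 on chromosome 4. Several runs consist of gene copies whose probes may read each other's transcripts. Over all genes tested, 0.609% were called higher and 0.392% lower. How many runs such shares would give was not counted.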

How the data were processed

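All 18 arrays of the series were read as deposited. The authors scanned them with Agilent Feature Extraction (version 9.1.3.1, per the file headers), whose processed signal is a linear intensity with background subtracted. Here each of the 43379 non-control spots was taken as log2 of that deposited intensity, relative to the array's upper quartile. Repeated spots of a probe were averaged, and 183 probes flagged as outliers were dropped. The authors' deposited means of each group, an intensity relative to the array median, served only as an alternative, and their standard errors were not used.

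A probe was kept if both arrays of any of the 9 groups called it well above background. Names came from RefSeq (GRCm38.p6) by accession or symbol, and a gene was read from its brightest probe. In all 18870 genes were tested, including 15440 that RefSeq names. A single limma fit (version 3.58.1, in R 4.3.3 with the package data.table, version 1.17.8) covered the 9 groups. Residual degrees of freedom were 9, and limma's prior added 2.39, centred on an SD of 0.289. Tests were two-sided, and a Benjamini-Hochberg adjusted p under 0.05 was a call. With 2 arrays against 2, the smallest exact permutation p would be 0.333. Where the lower day was dim on both arrays, the fold is a lower bound: the higher day's mean against, per array, the lowest level well above background, or the gene's own level if higher. The p-values beside such bounds come from the levels without this floor. On simulated data the fit called 16 of 100 genes shifted by a log2 of 1, 62 of 100 shifted by 2 and 4 of 18670 unshifted genes. A gene without a call may thus have changed. The simulated noise was independent between arrays, unlike the data, where deviations on a shared slide were correlated. The number of arrays limits the precision.

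The labels do not say that replicate numbers pair samples. Same-numbered day 12 and day 16 arrays shared a slide, per the file headers, and their deviations from the day means correlated at 0.549 over genes, so slide and replicate number were tried as blocks.

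Named genes are a panel of 6 (Dazl, Dppa3, Pou5f1, Nanog, Ddx4, Kit), the markers Cryaa and Tcstv1, the 12 largest called rises and the 12 largest called falls among genes whose days separated and whose higher day was measured on each of its arrays, and from the 43 lists the called members and those with the smallest p. Some results for list members are not reported here. Other list members are given as values, and genes outside these were noticed after their values were seen. Members and lists were chosen with earlier results of these data known. Plots were drawn in Python (3.11.15) with matplotlib (3.10.9), pandas (2.3.3) and numpy (2.4.6).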

Additional observations from a re-analysis of the deposited data

How the results depend on the processing

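With 2 arrays a day the count of calls moved more than the direction of the genes. Leaving out each of the 4 arrays gave 59 to 82 calls, 32 to 53 higher and 27 to 29 lower. Leaving out arrays of other groups, mostly added after seeing the data, gave 138 to 374, 88 to 220 higher and 50 to 154 lower, so that the range over every array left out was 59 to 374 (32 to 220 higher, 27 to 154 lower). With only the 4 arrays in the fit there were 3708 (1480 higher, 2228 lower). The replicate block in that fit leaves 1 residual degree of freedom and gave 0 calls (0 higher, 0 lower), with 7389 genes at an unadjusted p under 0.05; the replicate block over all groups gave 176 and slide as a block 131. Genes well above background on all 4 arrays gave 102 calls, 51 higher and 51 lower, and 258 up and 186 down by 1 on both slides. Normexp gave 7037 calls (5394 higher, 1643 lower), 41 up and 65 down by 1 on both slides, and shifted the median of all genes to 0.25; the cause was not tested. With quantile normalization after normexp, added after seeing the data, there were 292 calls (175 higher, 117 lower), 59 up and 47 down. Under normexp alone these genes changed sign: Arg2 (0.20), Tie1 (0.71), Clec10a (0.24), Comp (0.35), Acta1 (0.014), Piwil1 (0.91), Mei4 (0.93), Hoxd13 (0.88), Myh6 (0.76), Myog (0.89), Tyrobp (0.93) and Fshr (0.96). Zfp352 (-0.27), Pramel39 (-0.73), Gm11487, AF067063, Pmel and Cox6a2 lost their call there without changing sign, and several rises from a dim day 12, among them Cubn, Crybb1 and Mip, shrank below the bounds given. Quantile normalization, median scaling, floored signals, no filter on dim probes, the filter on the compared days, the mean over probes, an intensity trend and a log2 change of at least 1 gave 145 to 263 calls. Of the 189 called genes, 147 could be matched to the authors' deposited group means, and all 147 had the same sign there. Those means come from the same arrays, and every called gene already separated the days, so this agreement is no independent check. Probes not well above background bound what can be measured.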

Other observations

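Some called genes belong to no list and were noticed after their values were seen. Usp9y, a deubiquitinating enzyme gene of the Y chromosome, was dim at -6.63 and -6.74 at day 12 and stood at -3.58 and -3.71 at day 16, at least 2.34-fold higher (limma, adjusted p = 0.000109). The other 8 Y genes measured were not called. Uba1y was 3.08 and 3.05 against 3.31 and 3.30, and Eif2s3y was 2.52 and 2.43 against 2.48 and 2.46, and both were well above background on all 4 arrays. Rbmy, which has many copies, was -0.34 and -0.34 against 1.37 and 1.24, a rise of 1.71 and 1.58 on the shared slides. The SEs, from the spread pooled over all groups, were 2.51 for Uba1y, 2.20 for Eif2s3y and 1.15 for Rbmy. A change in these genes could thus go uncalled. In germ cells of the juvenile testis Usp9y had a mean level of -2.03.

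The smallest p of the whole comparison belonged to a feature that the array names LOC627520 and that no RefSeq gene here carries. It stood at 5.84 and 5.85 at day 12 and at 2.50 on both day 16 arrays, a 10.2-fold fall (limma, adjusted p = 5.35e-06). C3, the central complement component, fell from 0.77 and 0.83 to -1.49 and -1.23 (limma, adjusted p = 0.00319), and Fgg, a fibrinogen chain, from -0.22 and -0.30 to -3.03 and -3.23 (limma, adjusted p = 0.0248). Trpm3, a channel of the retinal pigment epithelium and kidney, was dim at -4.62 and -5.05 and reached -2.12 and -2.09, at least 6.32-fold higher (limma, adjusted p = 0.00177). Ddx58, the RNA sensor RIG-I, was called higher, from -4.18 and -4.29 to -1.49 and -1.42 (limma, adjusted p = 0.0457), although no member of the interferon list was. The calls of Fgg and Ddx58 were lost with any 1 of the 4 arrays left out and with slide as a block, that of C3 was lost without day 16 replicate 1, and those of Usp9y, LOC627520 and Trpm3 held.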
